A study of Rattus norvegicus with 8 samples.

Results

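The endoplasmic reticulum stress genes described here are 10 genes of the unfolded protein response, picked by symbol: Hspa5, Sdf2l1, Creld2, Dnajb9, Hsp90b1 and Pdia4, which encode chaperones and folding helpers of the endoplasmic reticulum, and Xbp1, Ddit3, Atf4 and Trib3, which encode regulators of the stress response. They are 10 of 19769 named genes on the array. Sdf2l1 has 2 probes and each of the other genes has 1. Livers of 8 male Fisher 344 rats aged 18 weeks were profiled, 1 rat per array, with Agilent rat expression arrays read in 1 colour. The furan group (4 rats) received furan, a liver toxicant and liver carcinogen of rodents, by gavage at 8 mg per kg body weight per day on 5 days a week for 90 days. The control group (4 rats) has no treatment in its labels, and no vehicle is named in them. Both groups were killed 24 hours after the last treatment, so the comparison covers 1 dose, 1 time and 1 sex.

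The endoplasmic reticulum is where secreted and membrane proteins fold, and hepatocytes, which make most plasma proteins, carry a large share of that work. When unfolded proteins build up there, the sensors IRE1, PERK and ATF6 are set free or activated: IRE1 splices Xbp1 mRNA into the form that encodes an active factor, ATF6 is cut to release another, and PERK slows translation while favouring ATF4. Spliced XBP1 and ATF6 raise chaperone genes, whereas ATF4 raises Ddit3, Trib3 and genes of amino acid supply. An array probe reads the total mRNA of a gene, so neither the splicing of Xbp1 nor the cutting or phosphorylation of the sensors was measured.

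A spacing of 2 short letter groups, CCAAT and CCACG with 9 bases between them, is the textbook ER stress response element, through which ATF6 acts with the factor NF-Y. The 200 bases before the annotated start are shown for 6 of the 10 genes, from RefSeq on the GRCr8 build and read along the gene, because they show which of the genes carry that element, or another stress element, in exact form. Capitals mark the letters of the element named for each gene. In Hspa5 (chr3:38452816-38453015, plus strand), Hsp90b1 (chr7:23012294-23012493, minus strand), Creld2 (chr7:121789184-121789383, plus strand) and Xbp1 (chr14:84604423-84604622, plus strand) they mark the ER stress response element. In Trib3 (chr3:161275534-161275733, minus strand) they mark an element of the CEBP-ATF type, TGATGNAA, the kind of sequence that ATF4 binds with a partner. In Sdf2l1 (chr11:97376678-97376877, plus strand), which had the largest fall of the 10 genes and no exact ER stress response element, they mark CCAAT alone.
Hspa5: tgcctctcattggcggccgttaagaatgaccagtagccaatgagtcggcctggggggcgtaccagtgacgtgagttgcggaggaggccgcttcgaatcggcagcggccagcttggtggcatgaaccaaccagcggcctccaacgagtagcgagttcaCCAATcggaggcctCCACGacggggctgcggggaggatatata
Hsp90b1: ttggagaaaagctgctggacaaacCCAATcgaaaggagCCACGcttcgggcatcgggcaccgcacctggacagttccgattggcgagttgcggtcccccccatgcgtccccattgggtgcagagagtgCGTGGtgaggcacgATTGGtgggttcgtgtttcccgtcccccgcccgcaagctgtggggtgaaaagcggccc
Creld2: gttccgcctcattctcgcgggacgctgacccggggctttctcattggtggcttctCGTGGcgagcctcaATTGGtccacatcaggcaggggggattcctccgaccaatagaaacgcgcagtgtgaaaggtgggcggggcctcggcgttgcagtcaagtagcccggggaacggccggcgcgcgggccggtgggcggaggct
Xbp1: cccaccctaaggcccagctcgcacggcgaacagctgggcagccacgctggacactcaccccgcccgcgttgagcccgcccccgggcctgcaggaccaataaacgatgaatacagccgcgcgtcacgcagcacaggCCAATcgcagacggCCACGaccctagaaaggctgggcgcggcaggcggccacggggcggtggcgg
Trib3: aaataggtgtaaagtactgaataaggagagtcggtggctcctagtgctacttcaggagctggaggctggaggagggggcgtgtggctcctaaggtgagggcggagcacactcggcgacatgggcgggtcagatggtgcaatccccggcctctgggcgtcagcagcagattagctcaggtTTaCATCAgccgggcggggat
Sdf2l1: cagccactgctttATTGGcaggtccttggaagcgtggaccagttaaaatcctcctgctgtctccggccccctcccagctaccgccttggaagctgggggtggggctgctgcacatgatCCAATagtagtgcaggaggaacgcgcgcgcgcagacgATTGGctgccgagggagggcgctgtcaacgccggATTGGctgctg

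The ER stress response element was found, on either strand of the 300 bases from 250 before to 50 after the start, in 22 of 33469 rat promoter windows (0.0657%), and 4 of the 10 genes were among them. Its first base lay 43 bases before the start in Hspa5, 65 bases before it in Xbp1, and 145 bases before it, on the opposite strand, in Creld2. Hsp90b1 held 2 copies, at 176 bases before the start on its own strand and at 72 bases on the opposite strand. A second arrangement, ATTGG and CCACG with 1 base between them, was in 17 windows (0.0508%) and in none of the 10 genes. The letters TGACGTG, the core of the element that XBP1 binds, were in 605 windows (1.81%) and in Hspa5 alone of the 10 genes, 135 bases before its start. TGATGNAA was in 1332 windows (3.98%) and in Trib3 alone, 21 bases before its start on the opposite strand. Parts of the element are common: CCAAT, which every ER stress response element contains, was in 37.5% of all windows and in 8 of the 10 genes, and CCACG was in 31.6% of them and in 9 of the 10 genes. Only exact letters were searched, a match is no proof of a site, and a missing match says nothing of other windows or of variant sites.

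**Figure D1:**
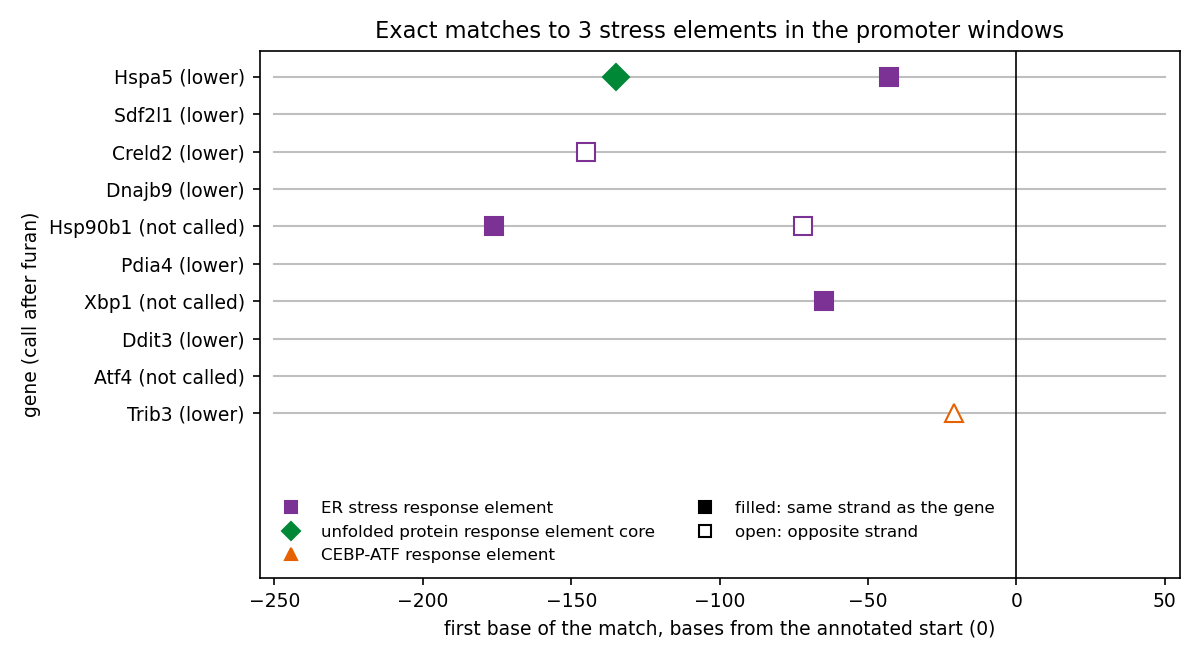
Exact matches to 3 stress elements in the promoter windows of the 10 genes, with the distance from the annotated start in bases on the horizontal axis and 1 row per gene, labelled with its call after furan. Filled symbols are on the strand of the gene and open ones on the opposite strand. Of the 4 genes with the ER stress response element, Hspa5 and Creld2 were called lower after furan, and Hsp90b1 and Xbp1 were not called.

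After 90 days of furan, 7 of the 10 genes had less mRNA in the liver and none had more, by limma, relative to each array's 75th percentile of signal. That percentile was itself higher on the furan arrays (1256 to 1596) than on the control arrays (827 to 1057). At an unadjusted p under 0.05 in limma, 9 genes were lower and 0 higher, where 23.7% of all features were lower and 22.9% higher. The fall covered 5 of the 6 chaperones and folding helpers (Hspa5, Sdf2l1, Creld2, Dnajb9 and Pdia4) and 2 of the 4 regulators (Ddit3 and Trib3). Levels after furan were 51.2 to 71.6% of control for these 7 genes. Hsp90b1, Xbp1 and Atf4 did not pass the test, with lower mean values after furan. Calls rest on an adjusted p under 0.05 in limma's moderated test, with Benjamini-Hochberg adjustment over all 17124 features tested, a feature being the brightest tested probe of a gene or a probe without a gene name. All 10 genes were well above background on all 8 arrays.

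The background of change in these livers was high. Of all features tested, 17.6% were called lower and 18.0% higher, against 7 lower and 0 higher of the 10 genes. The 10 genes were chosen with earlier results of these data known, so this contrast is a description and no test. In 18.3% of the features every furan array lay below every control array, which was so for the same 7 of the 10 genes, and in 19.2% every furan array lay above. The median change over all features was -0.03 on the log2 scale, and 52.0% of them were below 0, whereas the median over the 10 genes was -0.74 and 10 of 10 were below 0. The middle 90% of all features ran from -0.95 to 1.16, so that Sdf2l1, at -0.97, was the only one of the 10 genes outside that range. The arrays sit on 2 slides, animals 1 and 2 of each group on slide 1 and animals 3 and 4 on slide 2. With 2 animals a group, at an unadjusted p under 0.05 in limma, 6 of the 10 genes were lower and 0 higher on slide 1 (15.3% and 13.7% of all features) and likewise 6 and 0 on slide 2 (16.3% and 16.6%). In whole liver tissue, fewer cells of a type and less RNA per cell cannot be told apart.

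**Figure D2:**
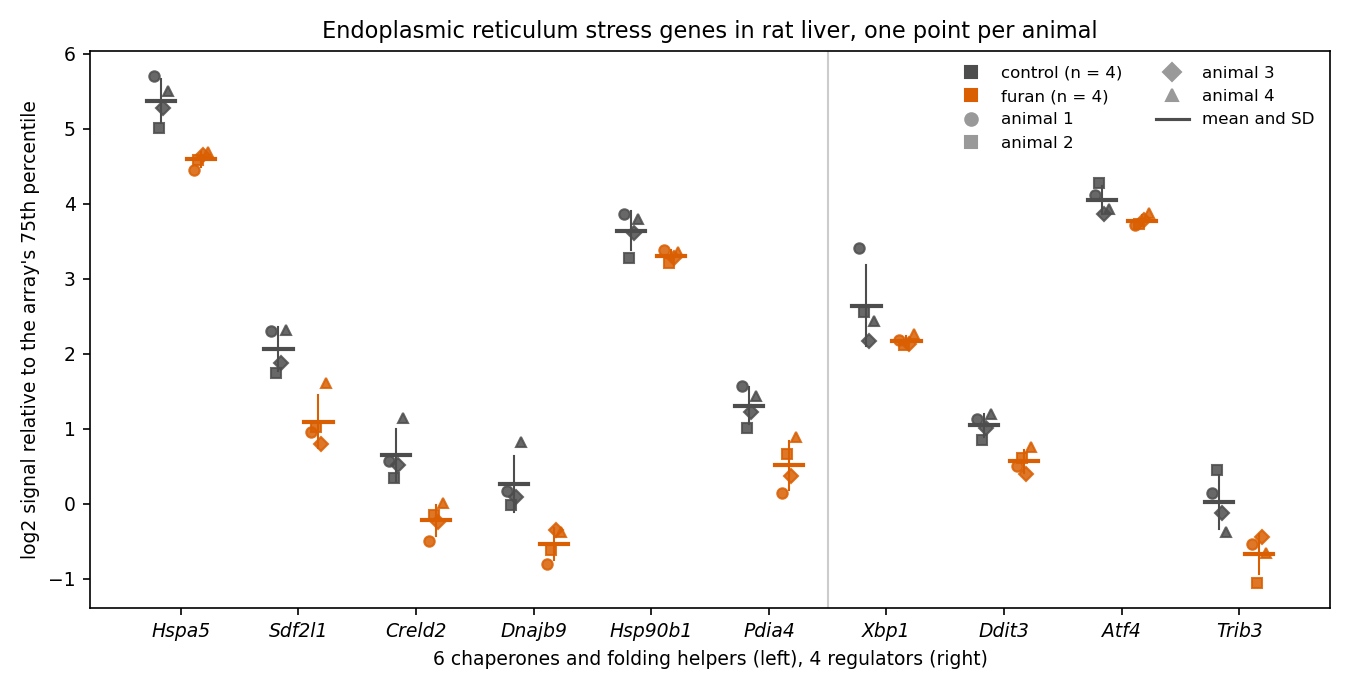
Level of each gene in each animal, as log2 of the processed signal over the 75th percentile of its array, with the mean and SD of each group (4 control animals in grey, 4 furan animals in orange). The groups are apart for Hspa5, Sdf2l1, Creld2, Dnajb9, Pdia4, Ddit3 and Trib3 and overlap for Hsp90b1, Xbp1 and Atf4. Heights of different genes come from different probes and cannot be set against each other.

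Hspa5 encodes BiP, the main Hsp70 chaperone of the endoplasmic reticulum, which also holds the stress sensors inactive. Its level, on the log2 scale relative to the array's 75th percentile (as for every level below), was 5.70, 5.01, 5.28 and 5.50 in control animals 1 to 4, and 4.45, 4.58, 4.64 and 4.69 in furan animals 1 to 4. All furan animals lay below the lowest control, with a gap of 0.32, and the furan animals were closer together (SD 0.10) than the controls (SD 0.30). Hspa5 fell by 0.78 ± 0.16 (SE, n = 4 against 4; limma adjusted p = 0.00626), to 58.3% of control (95% confidence interval 45.6 to 74.5%). The difference was -0.84 within slide 1 and -0.72 within slide 2. Leaving out any 1 array gave between -0.90 and -0.67, with the call kept each time. The probe lies at chr3:13787739-13787798 on the plus strand, in the array annotation's rn4 build.

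Sdf2l1 encodes a small partner of BiP complexes that helps keep unfolded proteins soluble. The brighter of its 2 probes (chr11:85880276-85880335, rn4) read 2.31, 1.75, 1.88 and 2.32 in the controls and 0.96, 1.02, 0.79 and 1.61 in the furan animals. Furan animal 4 was the highest of its group and still lay 0.14 below the lowest control. The fall of 0.97 ± 0.21 (SE; limma adjusted p = 0.00903) left 51.2% of control (36.6 to 71.5%), and it was -1.04 within slide 1 and -0.89 within slide 2. The second probe, 1 spot per array at chr11:85879929-85879988, read 2.04, 1.42, 1.40 and 1.79 in the controls and 0.96, 0.65, 0.49 and 1.26 after furan. It too was lower without overlap, by 0.82 ± 0.21 (limma adjusted p = 0.0172). That adjusted p comes from a separate fit over all tested probes, not over the 17124 features. Both probes of the gene thus passed, each in its own fit.

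Creld2 encodes a protein with disulfide isomerase activity that is induced by ER stress. Its control levels were 0.57, 0.35, 0.52 and 1.15, and its furan levels were -0.49, -0.15, -0.25 and 0.01 (probe at chr7:127125310-127125369, rn4). Control animal 4 stood highest, and all furan animals were below all controls. The fall was 0.87 ± 0.19 (limma adjusted p = 0.00892), to 54.9% of control (40.7 to 73.9%), with -0.78 and -0.95 within slides 1 and 2.

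Dnajb9 encodes ERdj4, a J-domain partner of BiP that binds misfolded proteins and IRE1. The controls read 0.18, -0.02, 0.09 and 0.82, and the furan animals -0.80, -0.62, -0.34 and -0.38 (probe at chr6:63583604-63583663, rn4). As for Creld2, control animal 4 was the highest of all, and the groups did not overlap. Dnajb9 fell by 0.80 ± 0.20 (limma adjusted p = 0.0154), to 57.3% of control (41.8 to 78.6%), by nearly the same amount within slide 1 (-0.79) and within slide 2 (-0.82).

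Pdia4 encodes ERp72, a disulfide isomerase that makes and rearranges disulfide bonds of secreted proteins. Its levels were 1.57, 1.01, 1.22 and 1.43 in the controls and 0.14, 0.67, 0.37 and 0.88 in the furan animals (probe on chromosome 4, spanning 75929978 to 75931486 on rn4, and so across a splice junction). The furan animals were spread more widely than those of Hspa5 and lay below all controls. The fall was 0.79 ± 0.19 (limma adjusted p = 0.0135), to 57.8% of control (42.7 to 78.1%), with -0.89 and -0.70 within slides 1 and 2.

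Hsp90b1 encodes GRP94, the Hsp90 chaperone of the endoplasmic reticulum. The controls read 3.87, 3.28, 3.61 and 3.80, and the furan animals 3.38, 3.21, 3.28 and 3.36 (probe within 23334474 to 23334623 on chromosome 7, rn4). Control animal 2 lay inside the range of the furan animals, and the other controls lay above it. The difference of -0.33 ± 0.14 did not pass (limma adjusted p = 0.0969), at 79.4% of control (63.5 to 99.2%). This interval overlaps those of the other chaperones, and the difference from them was not tested. Without control animal 2 the difference was -0.45 and passed (limma adjusted p = 0.0261), the only member outside the 7 that passed under any alternative.

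Among the regulators, Ddit3 encodes CHOP, a transcription factor that ATF4 induces and that promotes cell death under long stress. Its levels were 1.13, 0.84, 1.02 and 1.20 in the controls and 0.50, 0.61, 0.40 and 0.76 in the furan animals (probe at chr7:67252505-67252564, rn4). All furan animals were below all controls, with animal 4 the highest of each group. Ddit3 fell by 0.48 ± 0.12 (limma adjusted p = 0.0169), to 71.6% of control (59.0 to 86.9%), with -0.43 and -0.53 within slides 1 and 2. The call held without any 1 array, with the adjusted p reaching 0.0497.

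Trib3 encodes a pseudokinase that ATF4 and CHOP induce and that restrains the AKT kinase and ATF4 itself. It read 0.15, 0.45, -0.12 and -0.38 in the controls and -0.54, -1.05, -0.45 and -0.65 after furan (probe at chr3:142664936-142664995, rn4). The groups did not overlap, but control animal 4 came within 0.07 of furan animal 3. The fall of 0.70 ± 0.20 (limma adjusted p = 0.0290), to 61.7% of control (44.7 to 85.1%), was -1.09 within slide 1 and -0.30 within slide 2. This call was the least firm of the 7: it was lost without control animal 1 (adjusted p = 0.0674), control animal 2 (0.0633), furan animal 2 (0.0761) or furan animal 4 (0.0567), and with no filter on dim probes (0.0645), all in limma.

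Atf4 encodes the transcription factor at the centre of the PERK branch, which is controlled mainly at translation. Its levels, from 10 spots per array, were 4.12, 4.27, 3.86 and 3.93 in the controls and 3.71, 3.72, 3.79 and 3.88 in the furan animals (probe at chr7:118538840-118538899, rn4). Control animals 1 and 2 lay well above the furan animals, while control animal 3 lay just below furan animal 4. The difference of -0.27 ± 0.12 did not pass (limma adjusted p = 0.105), at 83.0% of control (68.9 to 99.9%), and it was -0.48 within slide 1 against -0.06 within slide 2.

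Xbp1 encodes the factor made by the IRE1 branch after splicing. The controls read 3.41, 2.56, 2.16 and 2.44, and the furan animals 2.19, 2.11, 2.13 and 2.26 (probe at chr14:86156913-86156972, rn4). Control animal 1 stood far above the rest, and control animal 3 lay inside the furan range. The difference of -0.47 ± 0.24 did not pass (limma adjusted p = 0.162), at 72.2% of control (49.3 to 106%), an interval that includes no change. It was -0.83 within slide 1 and -0.10 within slide 2, and -0.21 without control animal 1. Neither Xbp1 nor Atf4 was called under any of 21 alternatives.

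**Figure D3:**
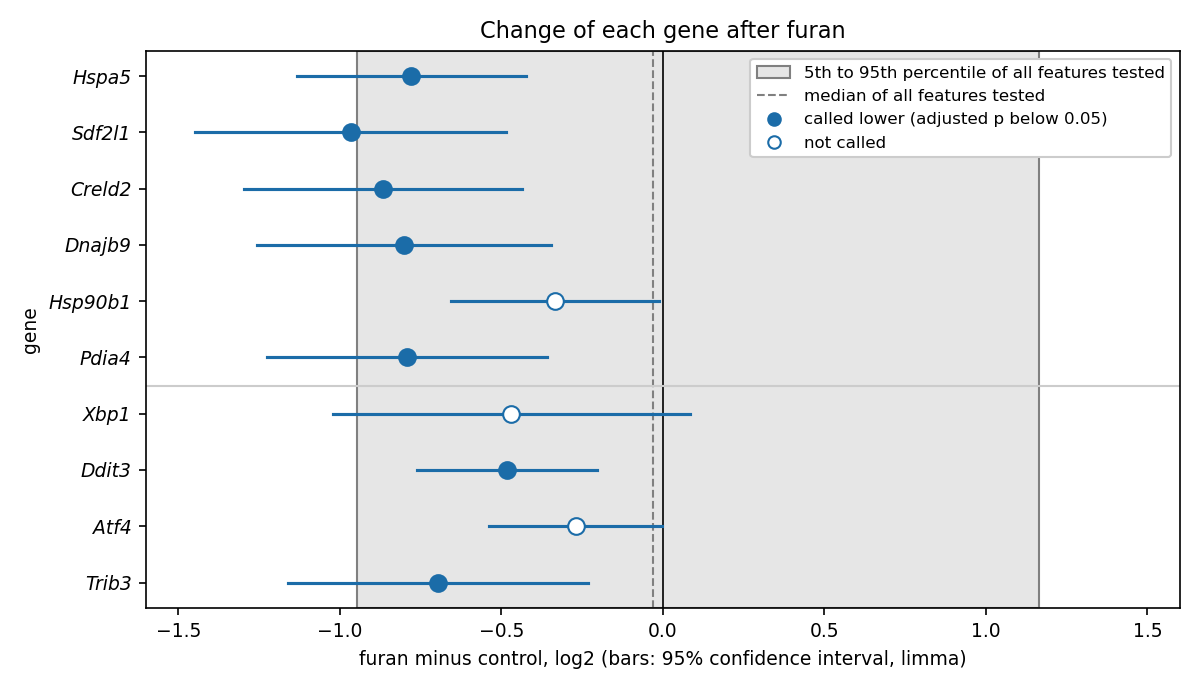
Furan minus control difference of each gene on the log2 scale with its 95% confidence interval from limma, filled where called lower. The shaded band is the range from the 5th to the 95th percentile of all 17124 features tested (-0.95 to 1.16) and the dashed line is their median (-0.03). All 10 estimates are below 0, 7 are called, and the intervals of chaperones and regulators overlap.

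Set side by side, the chaperones had a mean difference of -0.76 and a median of -0.80 on the log2 scale, and the regulators a mean of -0.48 and a median of -0.48. Per furan animal, the chaperone mean lay below the control mean by 0.94, 0.76, 0.80 and 0.52, and the regulator mean lay below it by 0.47, 0.59, 0.47 and 0.38. In 4 of 4 furan animals the chaperones were thus further below control than the regulators. In the controls the same quantities were 0.15, -0.32, -0.12 and 0.29 for the chaperones and 0.26, 0.09, -0.21 and -0.14 for the regulators. The chaperone mean minus the regulator mean differed by -0.28 between the groups, which is less than the spread of that quantity among the controls (SD 0.35; 0.15 among the furan animals). The spread of single animals is not the error of a difference between group means. Whether the chaperones fell more than the regulators was not tested on these means.

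**Figure D4:**
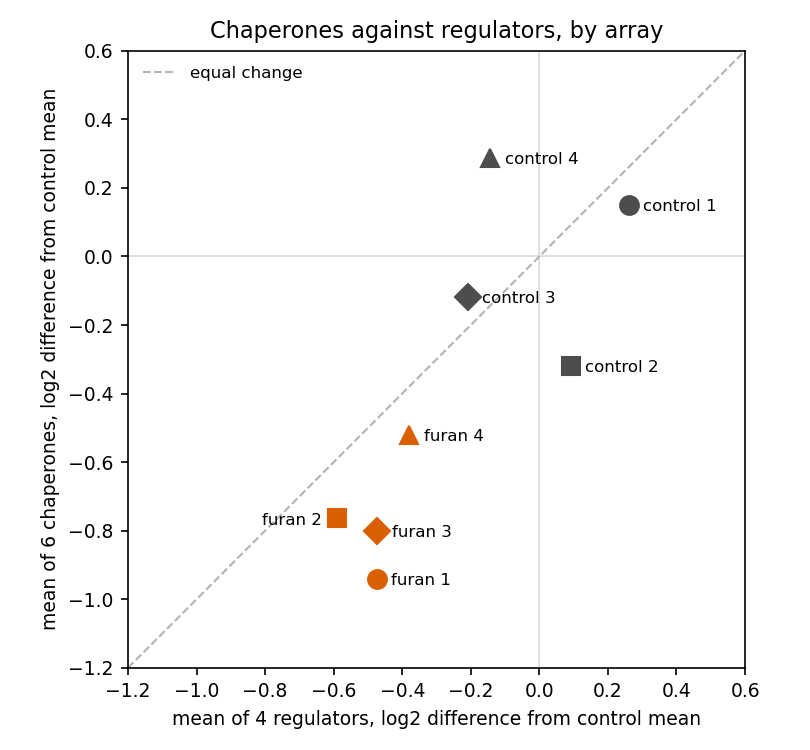
Mean log2 difference from the control mean for the 6 chaperones and folding helpers (vertical) against the 4 regulators (horizontal), 1 point per array, with control arrays in grey and furan arrays in orange. The dashed line marks equal change. The 4 furan arrays lie at -0.94 to -0.52 for the chaperones and below the line, while the controls lie on both sides of it.

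The ratio of Hspa5 alone to each regulator within an array was compared between the groups. This is a narrower question than that of the chaperones as a class. The comparison used 4 exact two-sided permutation tests whose smallest possible p is 0.0286. The log2 ratio to Ddit3 was lower after furan by 0.30 (exact permutation p = 0.0571, adjusted over the 4 tests 0.229). The ratio to Atf4 was lower by 0.51 (exact permutation p = 0.143, adjusted 0.286) and that to Xbp1 by 0.31 (exact permutation p = 0.286, adjusted 0.381). The ratio to Trib3 changed by -0.08 (exact permutation p = 0.8, adjusted 0.8). After adjustment a single ratio at the smallest p could reach only 0.114, and 2 such ratios 0.0571, so the design left little room for a ratio to pass and these values neither show nor exclude an unequal fall.

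The control animals differed among themselves in a patterned way. Control animal 2 had the lowest control level of 7 of the 10 genes (Hspa5, Sdf2l1, Creld2, Dnajb9, Hsp90b1, Pdia4 and Ddit3) and the highest of Atf4 and Trib3. Control animal 4 had the highest level of Sdf2l1, Creld2, Dnajb9 and Ddit3 and the lowest of Trib3. Within the furan group, animal 4 was highest for 7 of the 10 genes. Control animal 2 and furan animal 1 were the 2 arrays that the scanner's quality report marked for evaluation, with a median spread of replicate spots of 9.38% and 12.8% against 4.20 to 7.57% on the other arrays. With both left out the same number of genes, 7, was called lower, with Hsp90b1 gained and Trib3 lost.

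The levels most like that of Hspa5 over the 8 arrays, by Pearson's r among 12567 other named features well above background on all arrays, were those of Ggps1, which makes geranylgeranyl diphosphate (r = 0.993), the plasma copper oxidase gene Cp (0.988), the lysosomal enzyme gene Ctbs (0.988), the disulfide isomerase gene Pdia3 (0.985) and Iqgap2 (0.983). After the group means were taken out, their r with Hspa5 was between 0.92 and 0.96. For Ddit3 they were Ptrh2 (0.979), Gpc4 (0.978), Manf (0.972), Usp25 (0.970) and C10h5orf15 (0.969). After the group means were taken out, the r of these genes with Ddit3 was between 0.88 and 0.94. All the genes were picked by their r over the same 8 arrays. A high r within the groups therefore follows in part from that choice. These values are descriptions over 8 arrays that share the group difference and each array's scaling.

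Other genes of the secretory pathway were read from 8 lists by role, which together hold 138 tested genes, the 10 genes included. Of the 128 others, 22 were called lower and 23 higher, shares close to the background of 17.6% and 18.0%. Differences between the lists were not tested.

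Of 18 ER chaperones and folding helpers, 8 were lower and 1 higher, with a median change of -0.36 on the log2 scale; without the 5 chaperones described above, 4 of 13 were lower and the median was -0.26. The largest falls among these others were those of the prolyl isomerase gene Fkbp2 (by 0.60 ± 0.14, limma adjusted p = 0.0121), the calcium-binding lectin chaperone gene Calr (by 0.59 ± 0.14, adjusted p = 0.0123) and Manf, a secreted stress factor (by 0.53 ± 0.16, adjusted p = 0.0342). Dnajc10, a J-domain reductase, rose by 0.50 ± 0.11 (limma adjusted p = 0.0103). Of 13 disulfide isomerases and oxidases, 3 were lower and 2 higher (median -0.04): besides Pdia4, Pdia5 fell by 0.98 and Pdia3 by 0.63, while Qsox1, a sulfhydryl oxidase that also acts outside the endoplasmic reticulum, rose by 0.89. The falls of Pdia5 (limma adjusted p = 0.00212) and Pdia3 (0.00745) and the rise of Qsox1 (0.00111) kept their calls without any 1 array.

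ER-associated degradation returns misfolded proteins to the cytosol for destruction. Of its 17 tested genes, 6 were lower and 2 higher (median -0.32), against 17.6% and 18.0% of all features. Sel1l, the adaptor of the HRD1 ubiquitin ligase, read 0.70, 0.55, 0.76 and 0.63 in the controls and -0.49, -1.16, -0.11 and -0.42 after furan, a fall of 1.21 ± 0.21 (limma adjusted p = 0.00355) that was larger in size than that of any of the 10 genes. Edem1 (-0.64, limma adjusted p = 0.0340) and Edem3 (-0.61, 0.0450), which send glycoproteins to degradation, were lower with overlapping groups. Edem2 was higher (0.61) without overlap. Edem3 was dim, at -6.53 to -5.75 in the controls and -7.09 to -6.45 after furan, and was well above background on 7 of 8 arrays. Apart from the single slides, Edem1 lost its call under 8 of 19 alternatives and Edem3 under 10 of 18. Of 11 stress sensors and their proteases, 2 were lower, a share near the background of 17.6%, and none higher by limma (median -0.34). At an unadjusted p under 0.05, 6 were lower and 0 higher, against 23.7% and 22.9% of all features. The lower ones were Creb3l1 at -0.70 and Creb3l2 at -0.37, both relatives of ATF6. The genes of the sensors themselves, named here after their values were seen, did not pass: Ern1, which encodes IRE1, differed by -0.65 ± 0.22 (limma adjusted p = 0.0507), Eif2ak3, which encodes PERK, by -0.54 ± 0.19 (0.0521), and Atf6 by 0.03 ± 0.13 (0.897).

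Of 12 stress-induced regulators, 2 were lower (Ddit3 and Trib3) and 1 higher (median -0.37, and -0.17 without the 4 regulators described above). The gene that was higher was Atf3, a rapidly induced transcription factor of the same family as Atf4. It read -2.44, -1.41, -2.91 and -2.68 in the controls and 0.48, -0.29, -1.39 and -1.72 after furan. Its rise of 1.63 ± 0.52 (limma adjusted p = 0.0389) came with overlapping groups, since control animal 2 lay above furan animal 4, and the call was lost without control animal 1, 3 or 4 or furan animal 1 or 2 (adjusted p 0.0683 to 0.103). The difference was 2.02 within slide 1 and 1.24 within slide 2. Atf3 was the only one of the 12 called higher.

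Of 22 ATF4 targets of amino acid supply and export, 10 were higher and 2 lower, against 18.0% and 17.6% of all features. Their median change was 0.46 (0.18 after normexp background correction). Phgdh, the first enzyme of serine synthesis, read 1.52, 1.62, 2.50 and 1.97 in the controls and 4.64, 4.81, 4.93 and 5.20 after furan, a rise of 2.99 ± 0.23 (limma adjusted p = 0.000202), or 7.95-fold. Psat1, the next enzyme of that pathway, rose by 2.42 ± 0.46 (adjusted p = 0.00536). Slc7a11, the light chain of the cystine importer, rose by 3.10 ± 0.64 (adjusted p = 0.00739), and by 1.06 after normexp correction. The rise was 4.45 within slide 1 and 1.76 within slide 2. Slc7a11 had control levels of -7.10 to -6.23, and it was well above background on 7 of 8 arrays. Its partner chain Slc3a2 fell by 0.68 ± 0.13 (limma adjusted p = 0.00619). Vldlr, also called higher, was dim, at -7.47 to -6.09 in the controls, and was well above background on 5 of 8 arrays.

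Further along the pathway, genes of translocation and signal peptide cleavage (22 tested, 4 lower and 4 higher, median 0.00) and of COPII transport out of the endoplasmic reticulum (23 tested, 2 lower and 3 higher, median -0.04) had medians near that of all features. The translocon genes Ssr3 (-0.56), Sec63 (-0.45) and Tram1 (-0.38) were lower and Ssr2 (0.65) higher. Among the transport genes, Sar1b (-0.56), whose GTPase starts the coat that loads lipoproteins, was lower, and Tmed10 (0.72), Sec13 (0.54) and the KDEL receptor gene Kdelr3 (1.70, with overlapping groups) were higher. Kdelr3 was dim, at -7.35 to -5.12 in the controls, and was well above background on 7 of 8 arrays. After normexp correction Kdelr3 differed by 0.34 and was not called (limma adjusted p = 0.238). Without that correction it differed by 2.62 within slide 1 and by 0.79 within slide 2. Of the 26 genes named from these 8 lists, 15 kept their call under every alternative run apart from the single slides. The other 11 lost it under at least 1 of these alternatives: Manf, Edem1, Edem3, Creb3l1, Creb3l2, Ssr3, Tram1, Ssr2, Kdelr3, Sar1b and Atf3. The losses ran from 2 of 19 alternatives for Creb3l1 and Ssr2 to 12 of 19 for Tram1.

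**Figure D5:**
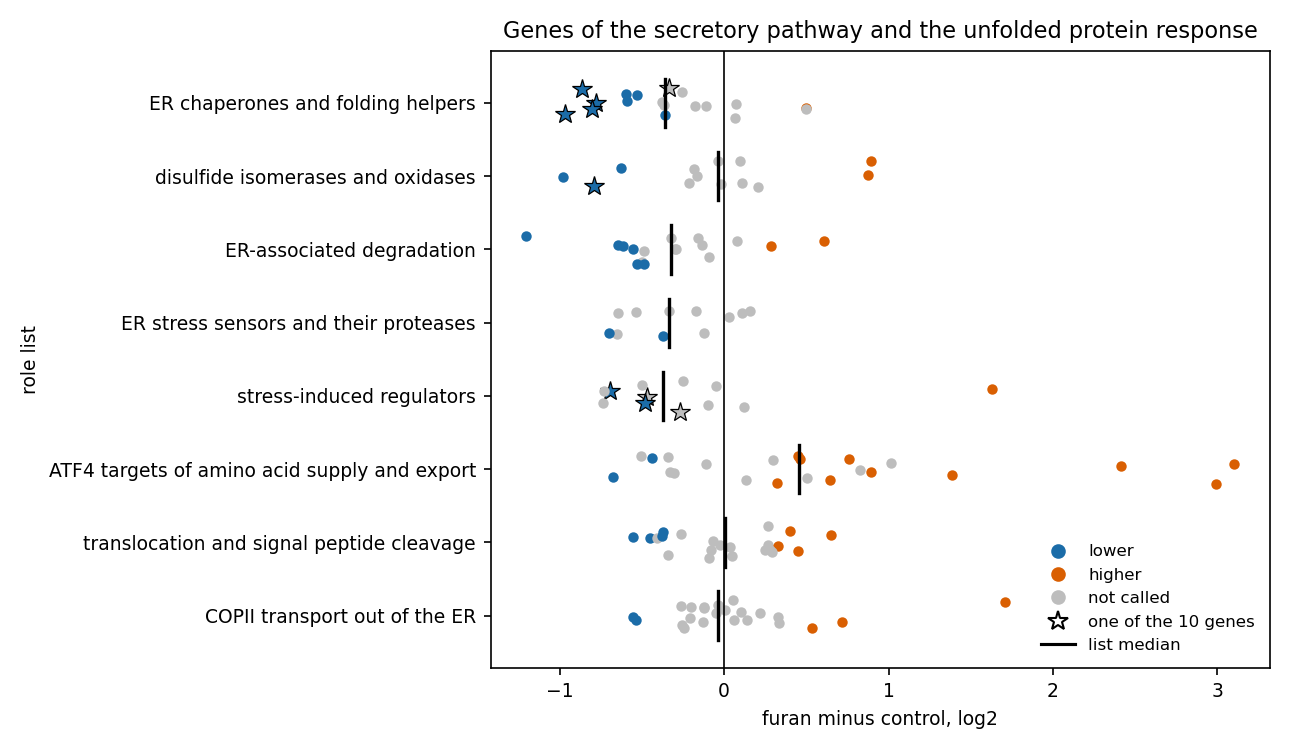
Furan minus control difference on the log2 scale for every tested gene of 8 role lists, coloured by call, with stars for the 10 genes and a black bar at each list's median. Medians run from -0.37 for stress-induced regulators to 0.46 for ATF4 targets of amino acid supply and export, and those of translocation (0.00) and COPII transport (-0.04) sit at 0.

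The tissue was liver by its markers, and the hepatocyte markers moved with the groups. Of 15 hepatocyte genes, 11 were lower and 1, Apoa1, was higher after furan (median -0.68), against 17.6% and 18.0% of all features. Ttr and Tf were among the lower ones, while Alb (-0.36, limma adjusted p = 0.128), Tat and Ahsg were not called. The median level of the 15 genes per array ran from 7.62 to 7.77 in the controls and from 6.996 to 7.17 in the furan animals. The median of the 10 genes (-0.74) was thus of the same size as that of the hepatocyte genes, and the part of hepatocyte content in these falls was not tested. Of 9 biliary genes, 2 were higher and none lower, against 18.0% and 17.6% of all features. Their median level per array was -4.40 to -2.95 in the controls and -4.07 to -0.07 after furan. It was highest in furan animals 1 and 2 and, among the controls, in control animal 2. These animals were on slide 1, as was the lowest control, animal 1. Furan animals 3 (-4.02) and 4 (-4.07), on slide 2, lay within the control range. The part of the biliary genes in the levels of the 10 genes was not tested.

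Plasma cells, whose secretory work makes them rich in chaperone mRNA, left little signal: of 10 B and plasma cell genes, 8 had a probe, and 2 of these were tested (Pou2af1 and Blk, neither called), while 6, Mzb1 and Tnfrsf17 among them, were not well above background on all 4 arrays of either group. Of 10 pancreatic acinar genes, 4 were tested and none was called, also not at an unadjusted p under 0.05 in limma. None of 10 macrophage, 9 stellate and myofibroblast, 8 endothelial and 7 T and NK cell genes was called in either direction by limma, and at an unadjusted p under 0.05 only 1 endothelial and 1 T and NK cell gene were lower. Of 8 neutrophil genes, 5 were tested and 3 of these, S100a8, S100a9 and Csf3r, were lower, against 17.6% of all features. The groups overlapped for each of the 3 (limma adjusted p 0.0322 to 0.0484). The median level of the 5 tested genes was -3.08 to -2.16 in the controls and -4.34 to -3.88 after furan. Mpo, Elane and Ngp were well above background on no array. Of 8 mast cell genes, 1 was tested (Kit, not called).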

How the data were processed

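Per the file headers and the submitters' processing notes, the authors scanned the arrays in 1 colour and extracted their spots in Agilent Feature Extraction 10.7. The deposited processed signal is a background-subtracted fluorescence intensity. The deposited series table holds the same intensities, scaled on each array to a 75th percentile of 1000. The other deposited columns used were the scanner's marks for outlier spots and for signal well above background. For normexp background correction, the mean spot signal and the median background signal were used in place of the processed signal.

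Levels are log2 values computed here from the authors' processed signal, minus the log2 75th percentile of each array's 58717 non-control spots. That percentile was a signal of 827 to 1057 on the control arrays and 1256 to 1596 on the furan arrays. Every level and change is thus relative to a percentile that itself lay higher in the furan group. Changes in unscaled signal were not tested. Outlier-marked spots were left out and the spots of a probe averaged. Of 30367 probes, 18438 were named by transcript accession, 3168 by symbol, 419 by synonym and 1820 as the array annotation wrote them, and 6522 had no name. A probe was tested where over 50% of its spots passed the scanner's background test on each of the 4 arrays of either group, and the brightest tested probe stood for a gene, which gave 17124 features (13470 named). Groups were compared with limma 3.58.1 (lmFit, eBayes) in R 4.3.3, two-sided, with Benjamini-Hochberg adjustment over all features. The fit was tested on simulated data. Arrays of 1 group correlated at 0.979 or more, and 70.9 to 78.5% of spots were well above background. The number of arrays limits the precision.

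Named genes were the 10 members, up to 3 called non-members of each role list with the largest change in its commoner direction and 1 in the other, and the 5 genes most correlated with Hspa5 and with Ddit3. The members and lists were chosen with earlier results of these data known. One gene of a cell marker list is not reported here. No protein sequence is shown, and promoters come from RefSeq's table for GRCr8. Alternatives changed the background correction, the normalization, the filter, the handling of spots and probes, the variance model, the slide and the arrays used.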

Additional observations from a re-analysis of the deposited data

Results flagged for a closer look

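Of 120 group values checked for an animal far from the other 3 of its group, 6 stood out. That is no more than the 1 in 20 or so that chance gives. The log2 ratio of Hspa5 to Ddit3 was 4.25 in furan animal 3 against 3.93 to 3.97 in the other furan animals. Edem2, a helper of glycoprotein degradation, read -0.0207 in control animal 1 against -0.37 to -0.33 in the other controls. Ssr3, a translocon subunit gene, read 1.71 in control animal 2 against 2.37 to 2.42. The median level of the ER-associated degradation genes was 1.26 in control animal 1 against 1.14 to 1.16 in the other controls, and 0.69 in furan animal 1 against 1.09 to 1.16 in the other furan animals. The median level of the endothelial markers was -2.77 in control animal 1 against -0.58 to -0.24. No level of any of the 10 genes stood out in this way.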

How the results depend on the processing

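Hspa5, Sdf2l1, Creld2, Dnajb9, Pdia4 and Ddit3 kept their direction and call under every alternative on 3 or 4 animals a group. In scaled signal, 10 of 10 genes stayed below 0 under all 21 alternatives. None of the 21 left the arrays unscaled, and the percentile used for scaling was higher on the furan arrays. Whether the direction holds in unscaled signal was therefore not tested. With 2 animals a group, on slide 1 or slide 2 alone, 0 of the 10 genes were called by limma (6 on each slide lower at an unadjusted p under 0.05, against 15.3% and 16.3% of all features), where few features were called at all: 228 higher and 108 lower on slide 1, and 855 higher and 663 lower on slide 2. Leaving out 1 array each gave 6 or 7 genes lower, and 1975 (without furan animal 2) to 2974 features lower, against 3010. Normexp background correction called 5507 features lower, so that 33.6% of calls were higher against 50.6%, and it moved the median of all features from -0.03 to -0.16; the 10 genes kept 7 lower calls. The ratio of Hspa5 to Trib3 changed sign on slide 1 alone (0.25), without control animal 4 (0.0941) and without furan animal 1 (0.00732), with a range of -0.34 to 0.0941 when 1 array was left out; the cause was not tested. Animals with the same number in the 2 groups share no pairing in the labels, and their deviations correlated at -0.30 to 0.26; with the replicate number as a block, 2454 features were higher, 2253 lower and 6 of the 10 genes lower, Trib3 being lost (adjusted p = 0.0774). The signals of the 10 genes were well above background on all arrays.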

Other observations

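The exact ER stress response element shown above for 4 of the 10 genes was also in the promoter windows of 17 other gene symbols, 13 of which were tested. Of these 13, 2 were lower after furan (Calr and Foxd4), 2 were higher (Birc5 and Zfp57) and 9 were not called, with a median difference of 0.04 on the log2 scale. Calr encodes a lectin chaperone and fell by 0.59 ± 0.14 (limma adjusted p = 0.0123), whereas Birc5, a gene of dividing cells, rose by 1.63 ± 0.16 (adjusted p = 0.000491). Derl3 and Dnajc3, both known targets of the stress response, differed by -0.49 (adjusted p = 0.127) and -0.26 (adjusted p = 0.0843) and did not pass. Together with the 4 members, 4 of 17 tested genes with the element were lower and 2 higher, against 17.6% and 18.0% of all features. These genes were chosen by the element and their values were seen before this paragraph was written.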
